A study of Mus musculus with 3 samples.

Results

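The genes described here are 45 mouse genes that remove, buffer or produce reactive oxygen species (ROS), out of 37072 gene names on the array. They were chosen by name, with earlier results of these data known. Each was read at the probe of that name with the highest mean signal over the arrays. By role, 15 of them remove superoxide and peroxides, 15 belong to the glutathione system, 6 belong to the thioredoxin system and 4 encode parts of NADPH oxidases. The other 5 were Nfe2l2 and Keap1, the quinone reductase gene Nqo1 and the heme oxygenase genes Hmox1 and Hmox2.

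RNA came from LT-HSCs (long-term hematopoietic stem cells), the bone marrow cells that sustain all blood lineages, of C57BL/6J mice of 3 genotypes, and was labelled with Cy3 for hybridization to Agilent arrays. The AtmsKO mice carried floxed alleles of Atm, which encodes a kinase that senses DNA breaks, together with the CAG-CreERT2 transgene, and the Atmp38dKO mice carried floxed Mapk14 (p38α) in addition. The WT mice of the labels were, per the methods, tamoxifen-injected animals with floxed alleles and without the transgene, so that both mutants held Cre and the controls did not. The CAG promoter is active in most tissues, so it does not restrict deletion to HSCs. Tamoxifen was given to all groups. The labels give an age of 11 weeks, whereas the series text gives tamoxifen from about 5 weeks of age and analysis 4 weeks later. The sort gate of the labels was CD150+CD48-Flt3-CD34- within lineage-negative cells that carry Sca-1 and c-Kit, and the methods add CD41-. Mice of both sexes were used in the study, and how many animals stand behind each array is not given in the sources used here. The design asks how Atm loss alone, and Atm loss joined with p38α loss, changes expression in LT-HSCs, and it gives 3 comparisons that share their arrays.

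Each group held 1 array. The spread between animals is therefore unknown, differences carry no p-value, and what is compared are the arrays themselves, not the conditions. All 3 arrays shared a slide and a scan. Atm was read by 2 probes. At the brighter probe its signal was 87.0 on the WT, 25.2 on the AtmsKO and 74.6 on the Atmp38dKO-labelled array, and at the other it was 88.8, 17.2 and 42.2. Mapk14, also read by 2 probes, was not lower on the Atmp38dKO-labelled array than on the WT array, with 469, 589 and 531 at the brighter probe and 295, 275 and 298 at the other. Relative to WT, Atm was 3.46-fold lower at its brighter probe and 5.17-fold lower at the other on the AtmsKO array. On the Atmp38dKO-labelled array it was 1.17-fold and 2.10-fold lower, and why these differences were smaller was not tested. Which exons Cre removed is not given in the sources used here, and for Mapk14 a probe outside the removed part checks nothing. The Atmp38dKO-labelled array is therefore called by its label throughout. Of a list of 14 HSC genes, all were well above background on all arrays. Their summed signal was 8651 on the WT, 8184 on the AtmsKO and 7313 on the Atmp38dKO-labelled array. Without Kit and Hlf, the 2 brightest, it was 4129, 3710 and 2921. Fgd5 and Hoxb5 were 3.29-fold and 3.12-fold lower than WT on the Atmp38dKO-labelled array, while Kit and Tek were 1.06-fold and 1.20-fold higher. All 4 genes of the markers used to gate cells out (Cd34, Flt3, Cd48 and Itga2b) were also well above background on all arrays.

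ROS are made by the mitochondrial respiratory chain and by NADPH oxidases. Superoxide dismutases turn superoxide into hydrogen peroxide, and catalase, glutathione peroxidases and peroxiredoxins remove the peroxide. The peroxidases and peroxiredoxins take their electrons from glutathione or thioredoxin and in the end from NADPH. The transcription factor Nrf2 (gene Nfe2l2), held back by Keap1, raises many of these enzymes by binding antioxidant response elements. HSCs keep ROS low, and germ-line loss of Atm is known for raising ROS and p38 activity in them, which makes these genes of interest here. After induced deletion, however, the paper reported comparable ROS in HSCs of Atm-deleted, doubly deleted and control mice. It found phosphorylated p38 in Atm-deleted HSCs unchanged at steady state and higher for a time after transplantation.

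The signal of a probe is what the scanner software gives as its processed intensity, and all signals below were scaled so that the 75th percentile of each array equals that of the WT array. A difference is the log2 ratio of scaled signals. A signal that was not well above background was raised to the floor of its array, the lowest signal of any probe well above background there, which was 5.33 on the WT, 6.46 on the AtmsKO and 4.28 on the Atmp38dKO-labelled array. A difference from such a floor is a lower bound. Every gene was read by a single spot on each array, and the error printed with a difference is the one the scanner software attaches to both spots, combined, which covers measurement of the spots and not the spread between animals.

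Nearly all antioxidant genes were measurable. Of the 45, 42 were well above background for WT, 42 for AtmsKO and 43 for the Atmp38dKO-labelled array, or 93.3%, 93.3% and 95.6%, against 75.5%, 71.3% and 79.7% of all genes. On all arrays 41 were detected. Sod3, the extracellular dismutase, and Gpx7, a peroxidase of the endoplasmic reticulum, were above background on none, with signals of 1.06 to 3.64 and 2.76 to 3.32. Slc7a11, the cystine transporter that feeds glutathione synthesis, was not above background on the WT array alone, and Gsta4, a glutathione transferase that clears lipid aldehydes, on the AtmsKO array alone. Between the Atmp38dKO-labelled and WT arrays Slc7a11 has no direction, because its signal of 5.07 on the former lay under the WT floor. In bulk RNA such as this, fewer cells of a type and less RNA per cell cannot be told apart.

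**Figure D1:**
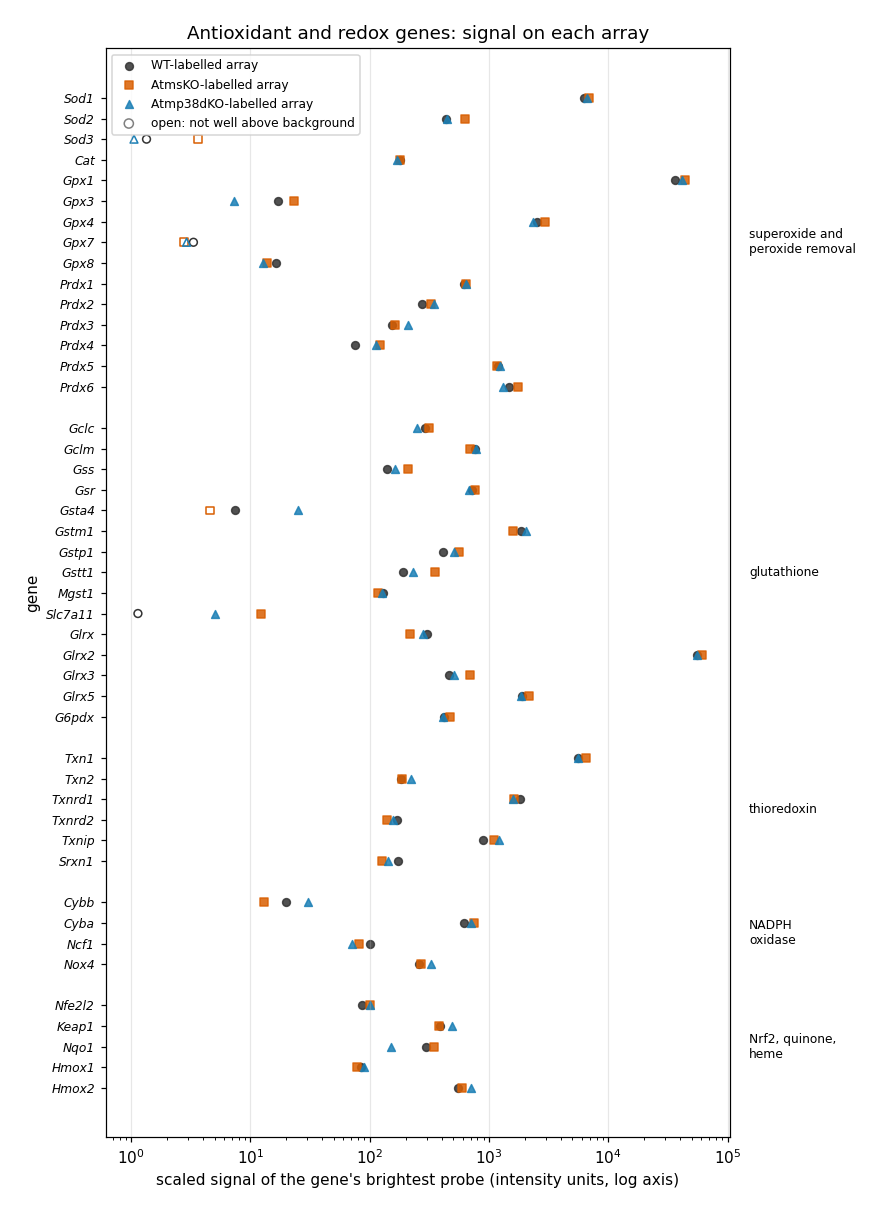
Scaled signal of the brightest probe of each of the 45 genes (intensity units, log axis) for WT, AtmsKO and the Atmp38dKO-labelled array, grouped by role, with open symbols where a probe was not well above background. For most genes the 3 symbols lie close together, and among genes above background on at least 1 array the wide gaps belong to Gpx3, Gsta4, Slc7a11, Cybb and Nqo1. The gap of Sod3 (1.34, 3.64 and 1.06) lies under background on all arrays.

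Few of the 45 genes differed by 2-fold in any comparison, with 0 to 3 genes in each direction. Between the AtmsKO and WT arrays, 1 of 43 genes above background on at least 1 of both (2.33%) was at least 2-fold higher (Slc7a11, as a bound) against 3.94% of all genes, and 0 were at least 2-fold lower against 4.09%. Between the Atmp38dKO-labelled array and the WT array, 1 was higher (Gsta4) against 4.02% and 1 was lower (Gpx3) against 4.49%. Between the Atmp38dKO-labelled array and the AtmsKO array, 2 were higher (Cybb and Gsta4, 4.65%) against 3.75% and 3 were lower (Gpx3, Nqo1 and Slc7a11, 6.98%) against 3.72%. With 43 genes a single gene makes 2.33%, so these counts lie within 1 or 2 genes of the shares over all genes. The comparisons share arrays, so a low value on 1 array enters 2 of them. With another background correction (normexp, offset 50), which compresses low signals, 0 of the 43 genes passed 2-fold in any comparison, beside 0.237% to 0.493% of all genes in a direction.

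The median difference of the genes was 0.11 between the AtmsKO and WT arrays, where 28 of 43 genes had the higher signal on the AtmsKO array (65.1%, beside 51.0% of all genes), and the median of all genes was 0.01. It was 0.05 between the Atmp38dKO-labelled array and the WT array, with 25 of 43 higher (58.1%, beside 52.2%) and a median of all genes of 0.02. Slc7a11, which has no direction in this comparison, is among the 43, and without it 25 of 42 were higher with a median of 0.06. Between the Atmp38dKO-labelled and AtmsKO arrays it was -0.07, with 19 of 43 higher (44.2%, beside 49.5%) and a median of all genes of -0.0047. This last direction was not stable, since quantile normalization gave 0.016 and normexp 0.029. The median size of a difference, whatever its direction, was 0.22, 0.19 and 0.21 in these comparisons, and 0.25, 0.26 and 0.24 over all genes. The differences exceeded the scanner error in 23, 20 and 22 of 43 genes, or 53.5%, 46.5% and 51.2%, beside 49.6%, 52.0% and 48.4% of all genes. For most of the 43 this error is the nearly fixed 0.204, so the count is one of differences past that size. Within a limit of 100 signal units on the brighter array, the median size was 0.22, 0.19 and 0.18 for the antioxidant genes and 0.18, 0.18 and 0.19 for all genes. Within this limit 70.3%, 59.5% and 44.4% of the antioxidant genes were higher in the 3 comparisons, beside 53.6%, 49.2% and 44.9% of all genes. In the last comparison the share of the antioxidant genes was thus near that of all genes of like signal.

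A smaller size of 1.5-fold, and a limit of 100 signal units on the brighter array, were chosen after the data were seen. At 1.5-fold, the AtmsKO array was higher than the WT array for 4 genes (Gss, Gstt1, Prdx4 and Slc7a11) against 10.1% of all genes, and lower for 1 (Cybb) against 10.2%. The array labelled Atmp38dKO was higher than the WT array for 3 (Cybb, Gsta4 and Prdx4) against 11%, and lower for 2 (Gpx3 and Nqo1) against 10.6%. It was higher than the AtmsKO array for 2 (Cybb and Gsta4) against 10.1%, and lower for 4 (Gpx3, Gstt1, Nqo1 and Slc7a11) against 8.81%. With normexp these counts were 1 (Gstt1) and 0, 0 and 1 (Nqo1), and 0 and 1 (Nqo1), where the shares of all genes fell to 1.37% to 2.12%. With all probes of a gene averaged, 1 gene in place of 3 (Gsta4) was higher on the Atmp38dKO-labelled array than on the WT array, against 10.3% of all genes. Under the limit of 100 units, the only gene of the 45 past 2-fold was Nqo1, lower on the Atmp38dKO-labelled array than on the AtmsKO array, as were 1.68% of all genes within the limit, and none of the 36 was higher there (1.35% of all genes). In the comparisons with WT, 0 of 37 genes passed 2-fold in either direction, against 1.68% higher and 1.63% lower for AtmsKO and 1.57% higher and 2.02% lower for the Atmp38dKO-labelled array.

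**Figure D2:**
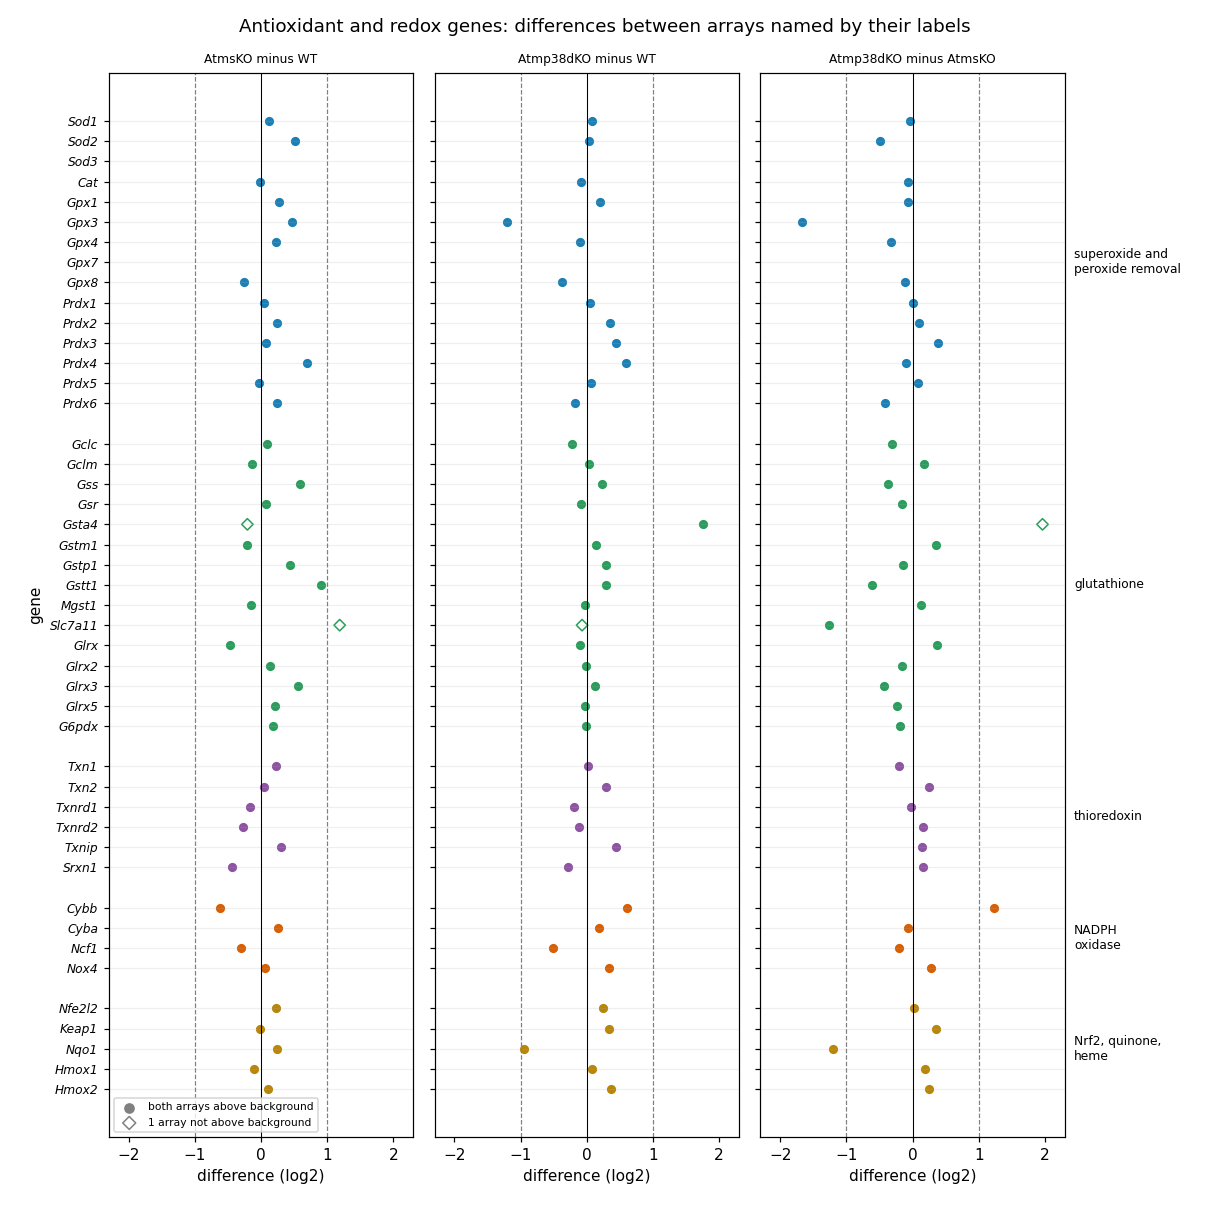
Difference (log2) of each gene in the 3 comparisons, with the array labels above each panel, dashed lines at 2-fold and open diamonds where 1 array was not above background, so that the difference rests on a floor. The points lie mostly within 0.5 of zero, and those past a dashed line are Slc7a11 in the first panel, Gpx3 and Gsta4 in the second, and these 3 with Nqo1 and Cybb in the third.

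The probes of the 5 genes past 2-fold, with a second probe of Cybb and Slc7a11, and those of Glrx2 and Nox4, whose brightest probe shares bases with other promoters, are shown first, since a signal is only as good as the stretch it reads. Each probe has 60 bases, of which the first 30 are printed 5′ to 3′ as the files give them. Capitals mark a run of 20 bases that recurs in at least 10 promoter windows of the mouse genome, and where there are no capitals the bases shown hold no such run. Coordinates are those of the whole probe on mm9, and whether it lies in a coding exon or a UTR was not assigned here.
Nqo1, chr8:109912440-109912499, minus strand: taggtcatttatgcaatattcgccattttc
Gpx3, chr11:54723436-54723495, plus strand: ttttttcagctttctgttccaaatgagccc
Gsta4, chr9:78046172-78047344, plus strand, across a splice junction: gctggagtggagtttgaggaagaatttctt
Cybb, brighter probe, chrX:9013216-9013275, minus strand: tttccttgtctttatttttcttgcagacaa
Cybb, other probe, chrX:9014314-9014373, minus strand: tccagtctgtaagctgaaaaagaagaacac
Slc7a11, brightest probe, chr3:50246786-50246845, minus strand: aagggttatttctgtggagtaaatgaatgg
Slc7a11, a probe of the RefSeq mRNA, chr3:50176047-50176106, minus strand: cctctagcgtattcaaattaatttttgagc
Glrx2, brightest probe, chr1:145596708-145596767, plus strand: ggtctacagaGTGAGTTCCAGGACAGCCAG
Glrx2, other probe of the mRNA, chr1:145593682-145593741, plus strand: ggacactcacaggcttcacaaagaagggaa
Nox4, brightest probe, chr7:94436116-94436175, plus strand: ccaggattacaggaaggacaggatccaatc
Nox4, a probe of the RefSeq mRNA, chr7:94472458-94487478, plus strand, across a splice junction: tgccccagtgtatcagcattagaaaaccac

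The capitals in the brightest Glrx2 probe are a stretch of the B1 element, a short interspersed repeat found throughout the mouse genome. A run of 20 bases of this probe occurred in 58 of 32851 promoter windows of other genes and in 13 array probes of other genes, whose WT signals ran from 389.6 to 51551 with a median of 11789. Among the 45 chosen probes this was the only one with such a run in 10 or more windows, and Nox4 was the only other with any, in 3 windows. At this probe the signal of Glrx2, a mitochondrial glutaredoxin, was 55609.8, 61113 and 54958 on the arrays in the order WT, AtmsKO, Atmp38dKO-labelled. At the other mRNA probe it was 483, 487 and 332, a difference of 0.01 for the AtmsKO array and -0.54 for the Atmp38dKO-labelled array against WT, where the brightest probe gave 0.14 and -0.02. How far the brighter signal comes from repeats in other transcripts was not tested.

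Among the genes that remove superoxide and peroxide, the signals of 13 could be compared. Relative to WT, 10 of the 13 were higher on the AtmsKO array (76.9%, beside 51.0% of all genes), with a median difference of 0.23, and 8 were higher on the Atmp38dKO-labelled array (61.5%, beside 52.2%), with a median of 0.05. Against AtmsKO, 4 were higher on the Atmp38dKO-labelled array (30.8%), with a median of -0.08. The share of all genes was 49.5%, or 44.9% within the limit of 100 units. Sod1, the cytosolic dismutase, had signals of 6278 on the WT, 6831 on the AtmsKO and 6625 on the Atmp38dKO-labelled array. Sod2, the mitochondrial dismutase, had 436, 625 and 446, which placed it higher on the AtmsKO array than on either other (0.52 ± 0.20 above WT). Catalase (Cat), which breaks down peroxide in peroxisomes, was level at 179, 178 and 169.

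The glutathione peroxidases differed among themselves. Gpx1, the main cytosolic member, gave 36284, 43700.5 and 41556, and Gpx4, which reduces lipid peroxides, gave 2532, 2968 and 2357, all within 1.26-fold. Gpx3, the secreted plasma peroxidase, gave 16.9 on the WT, 23.3 on the AtmsKO and 7.31 on the Atmp38dKO-labelled array. The last lay -1.21 ± 0.31 from WT and -1.67 ± 0.31 from AtmsKO, that is 2.32-fold and 3.19-fold lower. Gpx3 was thus the largest difference of this group, at signals near the floor and with 1 probe. Gpx8, a peroxidase of the endoplasmic reticulum, gave 16.4, 13.7 and 12.7, with differences from WT close to their errors.

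Of the peroxiredoxins, which reduce peroxide through a reactive cysteine, Prdx1 and Prdx5 were level and the others differed by more than the scanner error in at least 1 comparison. Prdx1 had signals of 622, 643 and 646 on the arrays in the order WT, AtmsKO, Atmp38dKO-labelled, and Prdx5 had 1182, 1161 and 1233. Prdx6 had 1480.2, 1757 and 1311, a difference of -0.42 between the Atmp38dKO-labelled and AtmsKO arrays, where its other mRNA probe gave -0.09. Prdx2 and Prdx3, the latter mitochondrial, had their highest signal on the Atmp38dKO-labelled array, at 0.35 and 0.45 above WT with an error of 0.20 each. The other mRNA probe of Prdx2 had 206, 238 and 208, with AtmsKO highest and a difference of 0.02 in place of 0.35, and Prdx3 has 1 probe. Prdx4, the peroxiredoxin of the endoplasmic reticulum, was the 1 gene of the 45 that lay past 1.5-fold above WT on both other arrays at a measured signal on each array, with 75.2 on the WT, 121 on the AtmsKO and 114 on the Atmp38dKO-labelled array. Its differences were 0.69 ± 0.21 and 0.59 ± 0.21, and both rest on the same WT spot. With normexp they were 0.41 and 0.39, under 1.5-fold. The other Prdx4 probe gave the same direction and smaller differences, of 0.25 and 0.23.

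All 15 glutathione genes could be compared between the AtmsKO and WT arrays, and 10 of them were higher on the AtmsKO array than on the WT array (median 0.14, 66.7% beside 51.0% of all genes). On the Atmp38dKO-labelled array 7 of the 14 with a direction were higher than WT (median 0.01, without Slc7a11). On it 5 of 15 were higher than on the AtmsKO array (median -0.16, 33.3%), beside 49.5% of all genes, or 44.9% within the limit of 100 units. Of the synthesis genes, Gclc and Gclm stayed close. They encode the catalytic and modifier subunits of the enzyme that limits glutathione synthesis and had signals of 292, 312 and 250.4 and of 756, 687 and 775 on the arrays in the order WT, AtmsKO, Atmp38dKO-labelled. Gss, which completes the tripeptide, had 138, 209 and 162, and was 0.59 ± 0.20 higher on the AtmsKO array than on the WT array, while its other probe gave 1.01. Gsr, which restores oxidized glutathione, had 723, 761 and 683, and G6pdx, the source of NADPH in the pentose phosphate pathway, had 417, 474 and 415.

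The transporter and the transferases held the wider differences. Slc7a11 was not above background on the WT array (1.14) and had 12.1 for AtmsKO and 5.07 on the Atmp38dKO-labelled array. The AtmsKO array was thus at least 2.28-fold higher than WT, and the Atmp38dKO-labelled array was 2.39-fold lower than AtmsKO (-1.26 ± 0.38). The other 3 probes of Slc7a11, including both RefSeq mRNA probes, were above background on no array, and the brightest one belongs to another transcript. Gsta4 had 7.46 for WT, 4.60 for AtmsKO, where it was not above background, and 25.2 on the Atmp38dKO-labelled array. The last was 3.38-fold higher than WT (1.76 ± 0.37) and at least 3.90-fold higher than AtmsKO.

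Gstt1, a theta-class transferase, had 188 on the WT, 353 on the AtmsKO and 229 on the Atmp38dKO-labelled array, so the AtmsKO array lay above both others. Its difference from WT of 0.90 ± 0.20 was the largest between these 2 arrays among those of the 45 genes above background on both. Gstp1 had 415, 562 and 507, and the microsomal Mgst1 had 129.7, 116 and 127. Gstm1 had 1857, 1599 and 2050.0 at its brighter probe. Its other probe maps to chromosome 5 while the gene lies on chromosome 3, and transferases of a class resemble each other in sequence, so reads of a single transferase are uncertain here. Among the glutaredoxins, which use glutathione to reduce protein disulfides, Glrx had 302, 217 and 281, Glrx3 had 466, 688 and 509 and Glrx5 had 1892, 2184 and 1852. Glrx was lowest and Glrx3 highest on the AtmsKO array (-0.48 and 0.56 from WT, with errors of 0.20). Another mRNA probe of Glrx3 gave 0.34 for this difference, and a probe of another transcript gave -0.50.

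None of the 6 thioredoxin genes passed 1.5-fold in any comparison at its brightest probe. Txn1, the cytosolic thioredoxin, had signals of 5558, 6495 and 5629 on the arrays in the order WT, AtmsKO, Atmp38dKO-labelled, and Txn2, its mitochondrial counterpart, had 183, 188 and 224. The other mRNA probe of Txn2 had 48.4, 54.7 and 57.9. A probe of another Txn2 transcript had 36.2, 25.5 and 23.0, the opposite direction (-0.51 and -0.65 from WT). The reductases that recharge these thioredoxins were as close at their brightest probes, with 1814, 1611 and 1592 for Txnrd1 and 169, 140.4 and 156 for Txnrd2. The brightest Txnrd2 probe belongs to a transcript outside the RefSeq mRNAs. Srxn1, which repairs overoxidized peroxiredoxins, had 173, 128 and 142, with a difference of -0.44 ± 0.21 for the AtmsKO array. Txnip, which binds and inhibits thioredoxin, had 899, 1107 and 1219. Its other probe, of the same mRNA, put both other arrays at or below WT (1039, 793 and 1009.9), so the direction for Txnip depended on the probe. The median difference of the 6 was -0.07 for the AtmsKO array and -0.05 for the Atmp38dKO-labelled array against WT.

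Nfe2l2 and Keap1 stayed under 1.5-fold in all comparisons at their brightest probes. Nfe2l2 had 85.8 on the WT, 100.1 on the AtmsKO and 101 on the Atmp38dKO-labelled array, but a probe of another Nfe2l2 transcript had 84.7, 48.8 and 63.3, the opposite direction. Keap1 had 388, 382 and 489, and the Atmp38dKO-labelled array was 0.34 above WT and 0.36 above AtmsKO, with an error of 0.20 each. Nqo1, which reduces quinones and is a widely used readout of Nrf2, had 295 on the WT, 348 on the AtmsKO and 152 on the Atmp38dKO-labelled array. The array labelled Atmp38dKO lay below both others, by -1.20 ± 0.20 from AtmsKO (2.29-fold lower) and by -0.96 ± 0.20 from WT (1.94-fold lower). Nqo1 has 1 probe, at a signal where repeated spots of 1 probe varied with a median SD of about 0.05 (log2). The inducible heme oxygenase Hmox1, another target of Nrf2, had 84.2, 78.1 and 89.0, and the constitutive Hmox2 had 552, 596 and 709. The other mRNA probe of Hmox2 gave 0.64 and 0.49 above WT, where this one gave 0.11 and 0.36.

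Cybb, the catalytic subunit of the phagocyte NADPH oxidase, had 20.04 on the WT, 13.0 on the AtmsKO and 30.6 on the Atmp38dKO-labelled array at its brighter probe. The array labelled Atmp38dKO was the highest, at 1.24 ± 0.27 above AtmsKO (2.36-fold) and 0.61 ± 0.23 above WT. At the other probe of the same mRNA the WT array was the highest, with 27.3, while the AtmsKO array was not above background (6.47) and the Atmp38dKO-labelled array had 14.3. Both probes put the AtmsKO array lowest, and they disagreed on whether the Atmp38dKO-labelled array lay above or below WT (0.61 against -0.93). Of the other subunits, Cyba, the membrane partner of Cybb, had 622, 743 and 709 (581, 649 and 547 at its other mRNA probe). A probe of another Cyba transcript had 81.0, 93.2 and 156, which put the Atmp38dKO-labelled array 0.94 above WT. The cytosolic Ncf1 had 100.3, 81.5 and 70.6. The lineage cocktail of the sort, which holds antibodies to Mac-1 and Gr-1, is meant to remove granulocytes and monocytes, cells that use this oxidase. Their genes were above background on all arrays (15 of 15, summed signal 58623 to 64646, or 5952 to 6154 without Itgam and Csf3r, the 2 brightest probes, and median differences of 0.05, 0.02 and -0.14 in the 3 comparisons in the order used above). Of 9 macrophage genes, 7, 8 and 7 were above background on the arrays in the order WT, AtmsKO, Atmp38dKO-labelled, and Mrc1 on none. Their summed signal was 399, 320.1 and 294, and 203, 172 and 192 without Cd68, the brightest. Their median differences in the 3 comparisons were -0.42, -0.79 and -0.37. C1qc ran the other way, with 3.26 (not above background), 11.3 and 38.2. The part of granulocyte, monocyte and macrophage RNA in the Cybb signal was not tested.

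Nox4, a constitutive oxidase that makes hydrogen peroxide, had 258, 270.5 and 327 at its brightest probe, which belongs to a transcript outside the RefSeq mRNAs. Its 2 probes of the RefSeq mRNA had 7.33, 5.96 and 10.5 and 1.77, 1.28 and 4.31, each above background on the Atmp38dKO-labelled array and the first also on the WT array. A level of Nox4 mRNA therefore cannot be read from the brightest probe alone.

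Second probes allowed a check of direction for genes that had them. Of the 45 genes, 22 had 1 probe and 23 had several, 84 probes in all. Among other probes that were above background on both arrays compared, 20 of 25 gave the direction of the brightest probe for AtmsKO against WT, 16 of 28 for the Atmp38dKO-labelled array against WT and 13 of 25 between the Atmp38dKO-labelled and AtmsKO arrays. The median gap between probes of a gene was 0.17, 0.26 and 0.28 (log2), about as large as the median difference itself. The widest gap for the Atmp38dKO-labelled array against WT was that of Cybb (1.54). In the other comparisons it was that of Glrx3, at a probe of another transcript. That probe gave -0.50 in place of 0.56 for AtmsKO against WT. It gave 0.63 in place of -0.43 between the Atmp38dKO-labelled and AtmsKO arrays. Another wide gap was that of Txnrd2, where a probe of the RefSeq mRNA had 27.8, 22.8 and 49.4. It thus stood 0.83 above WT and 1.12 above AtmsKO on the Atmp38dKO-labelled array. The latter compares with 0.15 at the brightest probe and 0.05 at the remaining mRNA probe. Nqo1, Gpx3, Gsta4 and Gstt1 have no second probe.

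**Figure D3:**
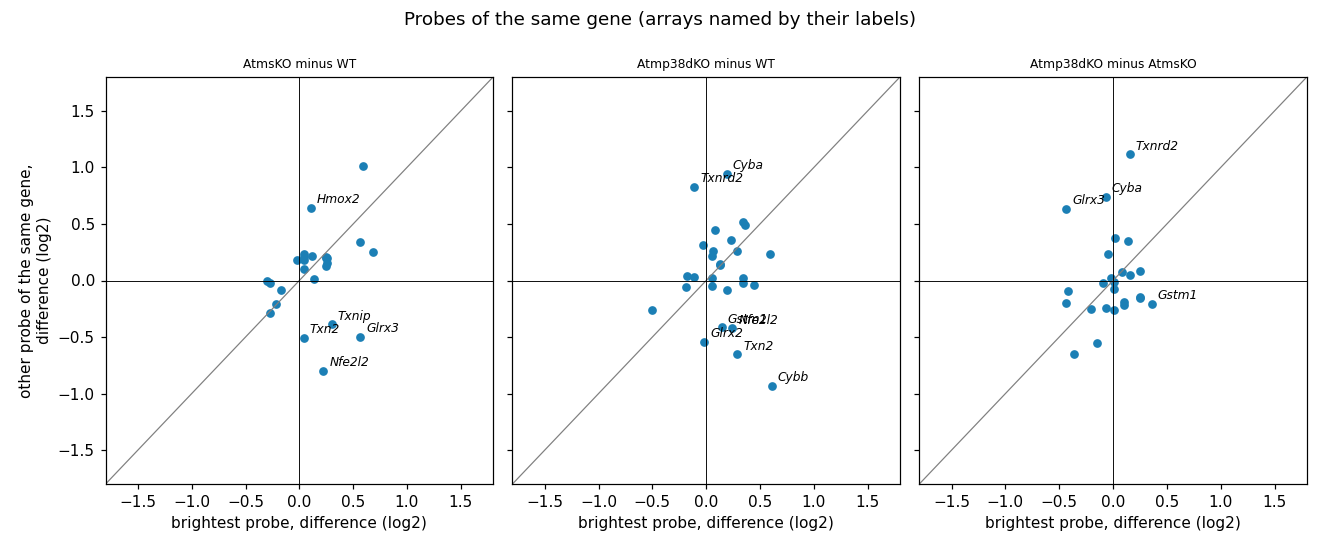
Difference (log2) at the brightest probe (horizontal) against that at every other probe of the same gene above background on both arrays (vertical), with the line of equality and names where the gap is at least 0.5. In the first panel 20 of 25 points lie in a quadrant of equal direction, and in the other panels 16 of 28 and 13 of 25 do.

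Differences of 2-fold lay mostly at low signal. Over all genes, 1.35% to 2.02% passed 2-fold in a direction within the limit of 100 units, against 3.72% to 4.49% without it. Repeated spots of 1 probe varied with a median SD of 0.05 (log2) above 100 units, 0.14 to 0.18 between 20 and 100 units and 0.26 to 0.30 under 20 units on the 3 arrays. Of the 5 genes past 2-fold, Gpx3, Gsta4, Slc7a11 and Cybb had signals under 31 units on all arrays. In all, 34 of the 45 genes were at 100 units or more on all arrays.

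**Figure D4:**
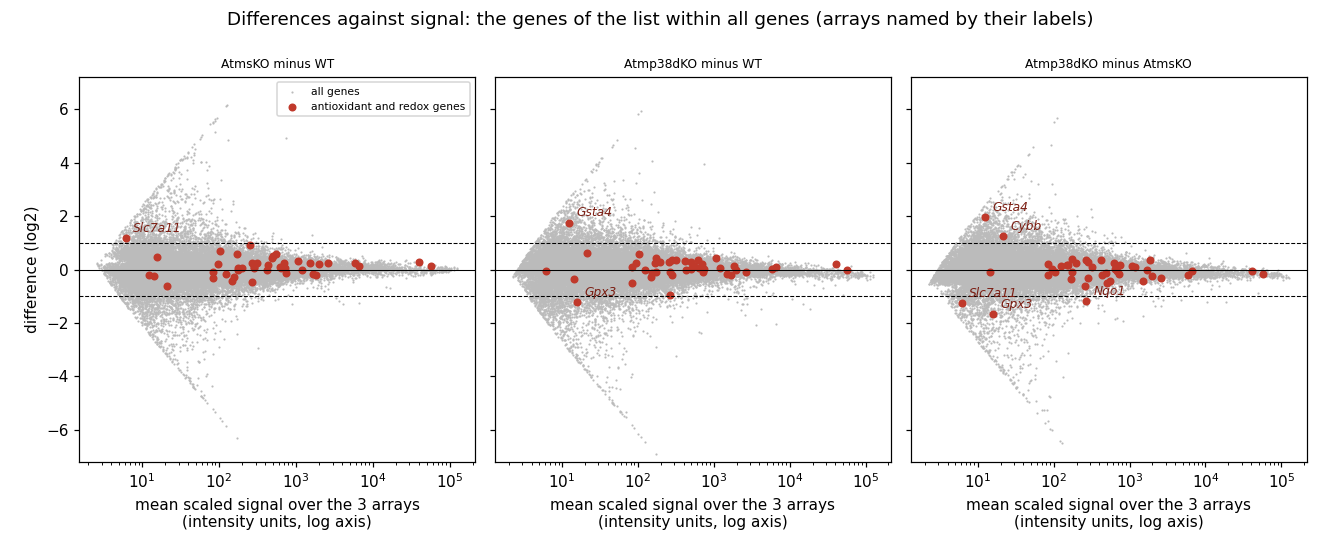
Difference (log2) against the mean scaled signal over the 3 arrays (log axis) for all genes in grey and the 45 antioxidant and redox genes in red, with dashed lines at 2-fold and names for genes past it. Most red points lie at signals where the grey cloud is narrow, and of the named genes Nqo1 alone lies above 100 units.

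Antioxidant response elements were looked for in the promoters, since Nrf2 acts through them and the data hold both Nrf2 and its targets. Promoter windows of 300 bases (250 before the start site and 50 after it) came from RefSeq on GRCm38.p6 and covered 39 of the 45 genes, without Gclc, Gsr, Gsta4, Hmox1, Prdx6 and Sod3. The core TGACNNNGC, on either strand, occurred in 8 of the 39 (20.5%), namely G6pdx, Gclm, Mgst1, Nfe2l2, Prdx1, Sod1, Srxn1 and Txnrd1, and in 14.0% of 27025 genes. A match is a description of letters and not a bound site. Windows of 29 bases around the core, in capitals, are shown for 3 classical Nrf2 targets, printed 5′ to 3′ along the strand that carries the core.
Prdx1, chr4:116685456-116685484, minus strand: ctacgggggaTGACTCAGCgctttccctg
Gclm, chr3:122245413-122245441, minus strand: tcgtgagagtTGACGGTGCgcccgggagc
Txnrd1, chr10:82859104-82859132, minus strand: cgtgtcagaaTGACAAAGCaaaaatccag

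The 8 genes with the core differed little in any comparison. Their median difference was -0.05 for the AtmsKO array and 0.01 for the Atmp38dKO-labelled array against WT, and 0.01 between the other pair of arrays, with all values between -0.44 and 0.24. The 30 measured genes with a window and no core had medians of 0.22, 0.14 and -0.09. Nqo1, Gpx3, Cybb, Slc7a11 and Gstt1, which differed more, had no such letters in their windows, which says nothing of elements outside them. The lowest signal of the 8 genes was 85.8 (Nfe2l2 on the WT array), whereas Gpx3, Cybb and Slc7a11 reached at most 23.3, 30.6 and 12.1. Nqo1 and Gstt1 were above 100 units on all arrays. The genes with and without the core thus also differ in signal, and a link of the core to the differences was not tested.

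A further 105 genes of the same pathways, from a list written for this work, gave counts of the same order. On the array 102 were present. The AtmsKO array was at least 2-fold higher than WT for 3 of 95 (Ero1l, Gstm7 and Noxo1) and lower for 5 (Ephx1, Gsta3, Gstt2, Idh1 and Tigar). The array labelled Atmp38dKO was higher than WT for 4 of 98 (Bach1, Ccs, Glo1 and Msrb3) and lower for 6 (Bach2, Chac1, Ephx1, Gstt2, Oplah and Tigar), and against AtmsKO 3 of 97 were higher and 3 lower. These are 3.16% and 5.26%, 4.08% and 6.12%, and 3.09% and 3.09%, near the shares of all genes given above.

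The further genes were read at their brightest probe alone. Other probes, such as those of Gsta3, Gstt2, Bach2, Glo1 and Gsto2, were not compared. Among the further genes above background on both arrays, Ero1l, which oxidizes thiols in the endoplasmic reticulum, had 134, 330.2 and 188. It stood 1.30 higher on the AtmsKO array than on the WT array. Gsta3, a glutathione transferase, had 86.3, 25.4 and 57.7 and stood at -1.76 in that comparison, and Gstt2, of the same class as Gstt1, had 69.7, 22.4 and 31.6 and stood at -1.64, opposite in direction to Gstt1. The largest of their differences from WT on the Atmp38dKO-labelled array was that of Bach2, a repressor that shares binding sites with Nrf2, with 136, 99.3 and 24.0 (-2.50). Bach1, the related repressor of Hmox1, had 42.3, 62.4 and 85.3 (1.01 above WT). Glo1, which uses glutathione to detoxify methylglyoxal, had 182, 193 and 461 (1.34 above WT and 1.25 above AtmsKO). Its probe lies on the chromosome of the targeted Mapk14 (chr17:30729951 and chr17:28873965 on mm9). Whether DNA near Mapk14 differed between the mice of the arrays was not tested. Ccs, the copper chaperone of Sod1, had 109, 177 and 221 (1.02 above WT). Gsto2, an omega-class transferase, had 25.3, 13.6 and 40.7 and was 1.59 higher on the Atmp38dKO-labelled array than on the AtmsKO array, where Noxo1, an organizer of an epithelial oxidase, was at -1.39 with 28.8, 57.9 and 22.1. Tigar, which steers glucose toward NADPH, had 22.8, 6.54 and 7.83 and was 2.91-fold lower than WT on the Atmp38dKO-labelled array, and on the AtmsKO array, where it was not well above background, it was at least 3.49-fold lower.

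**Figure D5:**
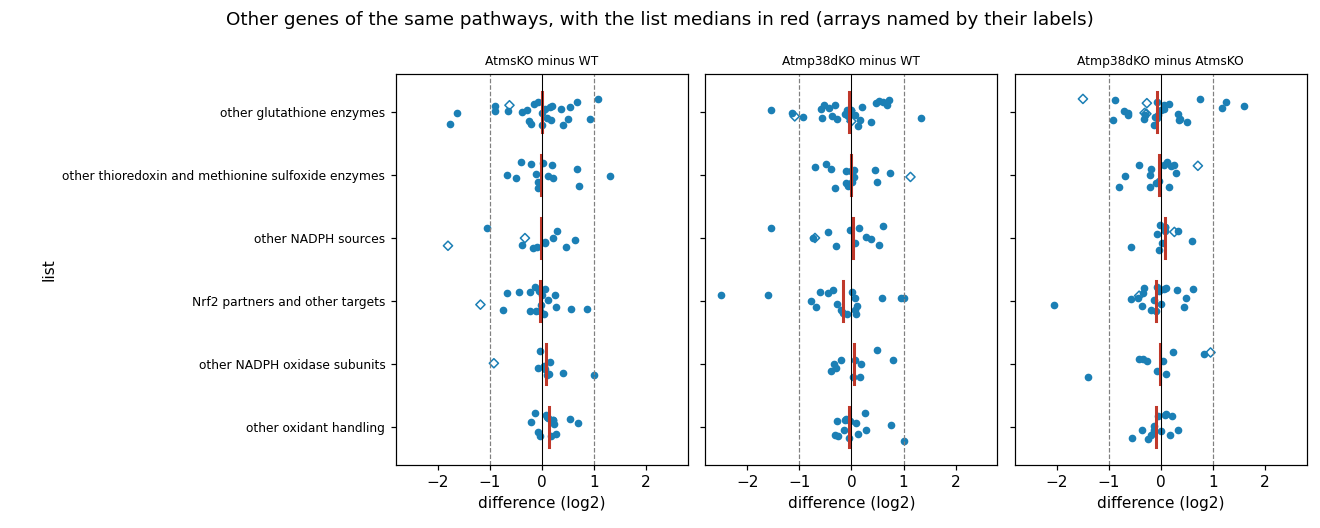
Difference (log2) of the further pathway genes in 6 lists for the 3 comparisons, 1 point a gene with a small vertical scatter, open diamonds for bounds, dashed lines at 2-fold and red bars at the list medians. The list medians lie between -0.16 and 0.14 in all panels, and the points past 2-fold are on both sides.

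Genes of other blood cells were measurable on all arrays. Erythroid genes, of cells rich in Prdx2, were above background for 13, 14 and 14 of 14 on the arrays in the order WT, AtmsKO, Atmp38dKO-labelled. Their summed signal was 1849.9, 1966 and 2259, and 594, 773 and 965 without Ermap, the brightest. Their median difference from WT was 0.47 and 0.51 on the arrays labelled AtmsKO and Atmp38dKO, while Car1 and Hba-a1 stood at -1.05 and -0.71 on the AtmsKO array. Megakaryocyte genes were above background for 9 of 9 on all arrays, with a median difference of 0.52 and 0.28 from WT. Their summed signal was 2392, 4162 and 2913, and 1372, 1665 and 1590.2 without Pf4, the brightest, while Gp5 stood at -1.54 from WT on the Atmp38dKO-labelled array. The median difference of the 14 HSC genes was -0.10 and -0.49 from WT on the arrays labelled AtmsKO and Atmp38dKO. Their part in the differences of the antioxidant genes was not tested.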

How the data were processed

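The authors' contractor scanned 1 Cy3 array a genotype and made the deposited intensity values with Agilent Feature Extraction 11.5.1.1, per the file headers. The processed intensity is background-subtracted and detrended within the array, with substitute values for spots that did not exceed background. No normalization between arrays is applied in it. The authors also deposited a log2 table of the same arrays, which equalled log2 of the processed intensity minus the 75th percentile over all probes within 0.02 for 99.56% to 99.76% of probes (column medians -2.22 to -2.17). Probe coordinates are on mm9.

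Spots for control, and those marked as outliers (57 for WT, 75 for AtmsKO, 83 for the Atmp38dKO-labelled array), were left out, spots of a probe were averaged, and 56605 probes remained. The measure was log2 of the processed intensity minus the 75th percentile of the array over non-control probes (101.5, 96.2 and 117.8), so changes in total RNA per cell are not seen. A probe was well above background if over 50% of its spots were. A gene was counted as different at 2-fold or more with the brighter side above background. No spot was saturated. Gene names are those of the files, and 42 of 45 chosen probes matched a RefSeq accession of the same symbol. All 45 genes were described, with full signals for those past 2-fold and for the 12 with the highest signal.

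The genes, the lists, the thresholds and the alternatives were chosen with earlier results of these data known. Alternatives were another scaling, quantile normalization and normexp (offset 50, limma 3.58.1, R 4.3.3), the authors' table, no floor, only genes above background on both arrays, and all probes of a gene. Scripts ran in Python 3.11.15 and were tested on simulated data. With so few arrays the precision is low throughout.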

Additional observations from a re-analysis of the deposited data

How the results depend on the processing

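No paired analysis was possible because a group held only 1 array, and for the same reason no array could be left out. All 8 differences of 2-fold or more kept their direction under every alternative that gave a value, and none of them kept its size under all: with normexp background correction, whose offset of 50 exceeds most of these signals, 0 genes passed 2-fold in any comparison, and the difference of Nqo1 between the Atmp38dKO-labelled and AtmsKO arrays was -0.92. With normexp the count was thus 0 in place of 1 higher for AtmsKO against WT, of 1 higher and 1 lower for the Atmp38dKO-labelled array against WT, and of 2 higher and 3 lower between the Atmp38dKO-labelled and AtmsKO arrays, where 0.237% to 0.493% of all genes passed in a direction. With the authors' table, and with no floor, 2 genes were higher for AtmsKO against WT (Slc7a11 and Sod3) and 2 for the Atmp38dKO-labelled array against WT (Gsta4 and Slc7a11), beside 5.98% to 7.87% of all genes. When only genes above background on both arrays were kept, 0 were higher for AtmsKO against WT and 1 for the Atmp38dKO-labelled array against AtmsKO, beside 2.93% and 2.78% of all genes. With all probes of a gene averaged, 1 gene (Cybb, -1.35) was lower for AtmsKO against WT in place of 0, beside 3.64% of all genes. Within the limit of 100 units, chosen after the data were seen, 0 were higher in each comparison, 0 were lower for the Atmp38dKO-labelled array against WT and 1 was lower between the Atmp38dKO-labelled and AtmsKO arrays. The median difference between these arrays, -0.07, became 0.016 with quantile normalization and 0.029 with normexp, so its direction is not settled; the cause was not tested. With normexp, 37.0% and 33.2% of all 2-fold calls were higher for the Atmp38dKO-labelled array against WT and against AtmsKO, in place of 47.3% and 50.2%. Of 129 gene and comparison pairs, 104 had the same direction under every alternative. The other medians, the counts of genes above background and the 2-fold counts and medians with Glrx2 and Nox4 read at another mRNA probe moved by less than the SD of a difference between repeated spots above 100 units, or by less than 1.5 times for counts. The 6 counts at 1.5-fold moved by over 1.5 times in 16 of 54 recomputations, with 0 to 5 genes each.

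Signal over background limits Gpx3, Gsta4, Slc7a11 and Cybb most, where a few intensity units make a 2-fold difference. With 1 array a group, differences between animals cannot be told apart from those between genotypes.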
